A study of Mus musculus with 48 samples.

Results

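The expression of 10 genes of iron transport and storage was followed through 8 groups of mouse RNA: the hormone gene Hamp, its sensors Tfr2 and Hfe, the importers Tfrc and Slc11a2, the carrier gene Trf, the ferritin genes Fth1 and Ftl1, the exporter Slc40a1 and the ferroxidase gene Cp. The members were all probe sets with one of these symbols as their only symbol in the platform annotation. This rule found 26 of 22690 probe sets, for 8 of the 10 genes. They were 2 each for Hamp, Tfr2, Hfe, Fth1 and Slc40a1, 3 for Slc11a2, 6 for Tfrc and 7 for Cp. Trf had 1 probe set and Ftl1 had 3, each shared with other symbols, so neither gene is described. Of the 6 Tfrc probe sets, 3 are array controls and were not tested. Of the other 23, 21 lay above the 40th percentile of the array in at least 3 RNA samples and entered the test across tissues. Cp 1417497_at and Hfe 1450702_at did not, with intensities up to 99.1 and 115 in any sample.

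The groups were liver, kidney and hypothalamus of males and of females, testis, and ovary, all from healthy mice whose strain, age and treatment the labels do not give. Each group had 3 RNA samples, each a pool of 10 animals and hybridised to 2 Affymetrix arrays. The RNA was bought from a supplier. It was selected for polyA except in the hypothalamus, which was total RNA, although another field of the labels says total RNA throughout. A difference between hypothalamus and another tissue and a difference in RNA preparation therefore cannot be told apart. The labels do not say whether the RNA samples within a group came from different animals, so a p-value measures only the spread between these samples, which may be technical. Levels are intensities scaled to a common mean, averaged over the 2 arrays. They are compared only within a probe set, since probe sets differ in brightness.

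Iron circulates bound to transferrin, the product of Trf, and enters cells through transferrin receptor 1, encoded by Tfrc, while Slc11a2 moves it out of the endosome. Inside the cell ferritin stores it, and ferroportin, encoded by Slc40a1, is the exporter. Ceruloplasmin, a copper protein made from Cp, oxidises the iron that leaves. Hepatocytes sense circulating iron through Tfr2 and Hfe and secrete hepcidin, the product of Hamp, which removes ferroportin from the cell surface.

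The labelled tissues carried the markers of most lists for their cells. In liver 7 of 7 measured hepatocyte genes, in kidney 7 of 7 tubule genes, in hypothalamus 6 of 6 neuronal and 5 of 5 oligodendrocyte genes, in testis 6 of 6 germ cell genes and in ovary 6 of 6 granulosa cell and oocyte genes exceeded the 40th percentile in every sample. Sertoli cell genes did so for 4 of 6 in testis. They summed to 10392 to 13232 there and to 18774 to 22431 in ovary. Choroid plexus genes did so for 1 of 4 in hypothalamus. Hepatocyte markers summed to 8975 to 15692 in hypothalamus, beside 107381 to 122531 in liver. In hypothalamus of each sex 2 of the 7 genes exceeded the 40th percentile in every sample and 4 in none. The 2 arrays of an RNA sample correlated at 0.966 to 0.990. Testis sample 3 stood apart: it correlated at 0.949 and 0.951 with the other testis samples, which correlated at 0.978 with each other. Its germ cell markers summed to 61189 against 77683 and 78110 in testis samples 1 and 2. Exocrine pancreas genes (5 of 7 measured) were above the 40th percentile in all liver samples. They summed to 6624 to 31962 there and to 476 to 4664 elsewhere.

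Hepcidin has a tandem copy in mice, Hamp2, and a probe set of one may read the other. The promoters of both are shown because they let a reader see how alike the copies are and where they differ in an element through which BMP signalling is known to act on Hamp. Capitals mark the hexamer GGCGCC, or its aligned counterpart, and then a match to TTCNNNGAA, the pattern of a STAT site. Both are the 250 bases before the start of the gene, from RefSeq on GRCm38.p6, minus strand, at chr7:30944030-30944279 for Hamp and chr7:30924182-30924431 for Hamp2.
Hamp: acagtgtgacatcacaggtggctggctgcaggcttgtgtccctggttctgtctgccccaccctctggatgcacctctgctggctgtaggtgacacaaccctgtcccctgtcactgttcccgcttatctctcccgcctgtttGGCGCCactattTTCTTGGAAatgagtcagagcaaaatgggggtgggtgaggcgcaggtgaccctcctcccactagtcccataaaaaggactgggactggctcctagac
Hamp2: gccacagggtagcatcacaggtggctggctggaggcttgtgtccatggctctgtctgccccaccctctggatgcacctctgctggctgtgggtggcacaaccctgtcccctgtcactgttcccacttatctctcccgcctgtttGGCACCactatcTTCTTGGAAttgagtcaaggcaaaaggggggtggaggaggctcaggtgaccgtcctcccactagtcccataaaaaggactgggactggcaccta
From 250 bases before to 50 after the start, 276 of 297 aligned bases (92.9%) were identical. In the hexamer Hamp2 carried the substitution G4A, counted from 1 at its 5′ end in the Hamp sequence. The hexamer began 109 bases before the start of Hamp, and the STAT pattern 97 bases before Hamp and 94 before Hamp2. Both patterns equal their own reverse complement, so one search covers both strands. Of 32851 such windows in the table, 11.9% held GGCGCC and 8.3% held TTCNNNGAA. A promoter was in the table for 7 of the 10 genes, not for Trf, Slc40a1 or Slc11a2. Among the other members only 1 of the Tfrc windows held the hexamer. A match is a description of the letters, not evidence of binding.

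Across tissues the liver set the pattern. Hamp, Tfr2, Hfe, Slc40a1 and Cp had their highest level there, Tfrc and Slc11a2 did not, and Fth1 was lowest in testis. A gene was counted by its brightest probe set, and called at an adjusted p under 0.05 in limma with both sexes averaged. Liver against kidney called 6 of 8 genes, 5 higher in liver and 1 lower, where 53.5% of all tested probe sets were called, 22.1% higher and 31.4% lower. Liver against hypothalamus called 7 genes, 6 higher and 1 lower, where 76.2% of all were called, 28.4% higher and 47.8% lower. Against testis 8 of 8 genes were higher in liver, where 72% of all were called, 37.5% higher and 34.5% lower. Against ovary 7 genes were higher in liver and none lower, where 64% of all were called, 19.1% higher and 44.9% lower. The median log2 difference over the 8 genes was 1.44, 2.82, 3.13 and 1.71 in those 4 comparisons, beside -0.06, -0.24, 0.04 and -0.26 over all probe sets. The shares of all are counted by probe set, the genes by 1 probe set each. Over the 21 tested member probe sets, 18, 18, 17 and 17 were called in those 4 comparisons. By sign 14, 15, 19 and 17 of the 21 were higher in liver. The brightest was taken over all 24 samples, so a probe set high in liver could be chosen for that. In bulk tissue, fewer cells of a type and less RNA per cell cannot be told apart.

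The pairs without liver called 3 to 6 of the genes. Kidney against hypothalamus called 5, 4 higher in kidney and 1 lower, where 72.5% of all were called, 29% higher and 43.5% lower. Kidney against testis called 6, each higher in kidney, where 70.5% of all were called, 39.8% higher and 30.8% lower. Kidney against ovary called 3, each higher in kidney, where 56.7% of all were called, 18.3% higher and 38.5% lower. That count was 6 with median centring and 5 with quantile normalization, without male kidney sample 1 or without testis sample 3. Hypothalamus against testis called 6, 5 of them higher in hypothalamus and 1 lower, where 74.5% of all were called, 46.7% higher and 27.8% lower. Hypothalamus against ovary called 6, 3 in each direction, where 61.9% of all were called, 29.9% higher and 32% lower. Each of the 3 counts with hypothalamus includes Tfr2 by 1459994_x_at, which is the brighter Tfr2 probe set only through liver and exceeded the 40th percentile in 1 of 6 kidney, 2 of 6 hypothalamus and none of the 3 testis or 3 ovary samples. The other Tfr2 probe set passed the threshold in none of these pairs. Over the 21 member probe sets, the pairs without liver called 15, 17, 9, 12 and 14 in the order above.

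The direction of calls over all probe sets moved with the scaling of the arrays. With median centring in place of the common trimmed mean, the share of calls that were higher went from 29.8% to 54.2% in liver against ovary, from 37.2% to 56.6% in liver against hypothalamus, from 32.2% to 54.9% in kidney against ovary and from 40% to 58.5% in kidney against hypothalamus. In hypothalamus against testis it went from 62.7% to 45.1%. The median difference over all probe sets went from -0.26 to 0.07, -0.24 to 0.15, -0.19 to 0.07, -0.17 to 0.14 and 0.28 to -0.13 in those pairs. No called difference of an iron gene changed its sign with either other scaling.

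**Figure D1:**
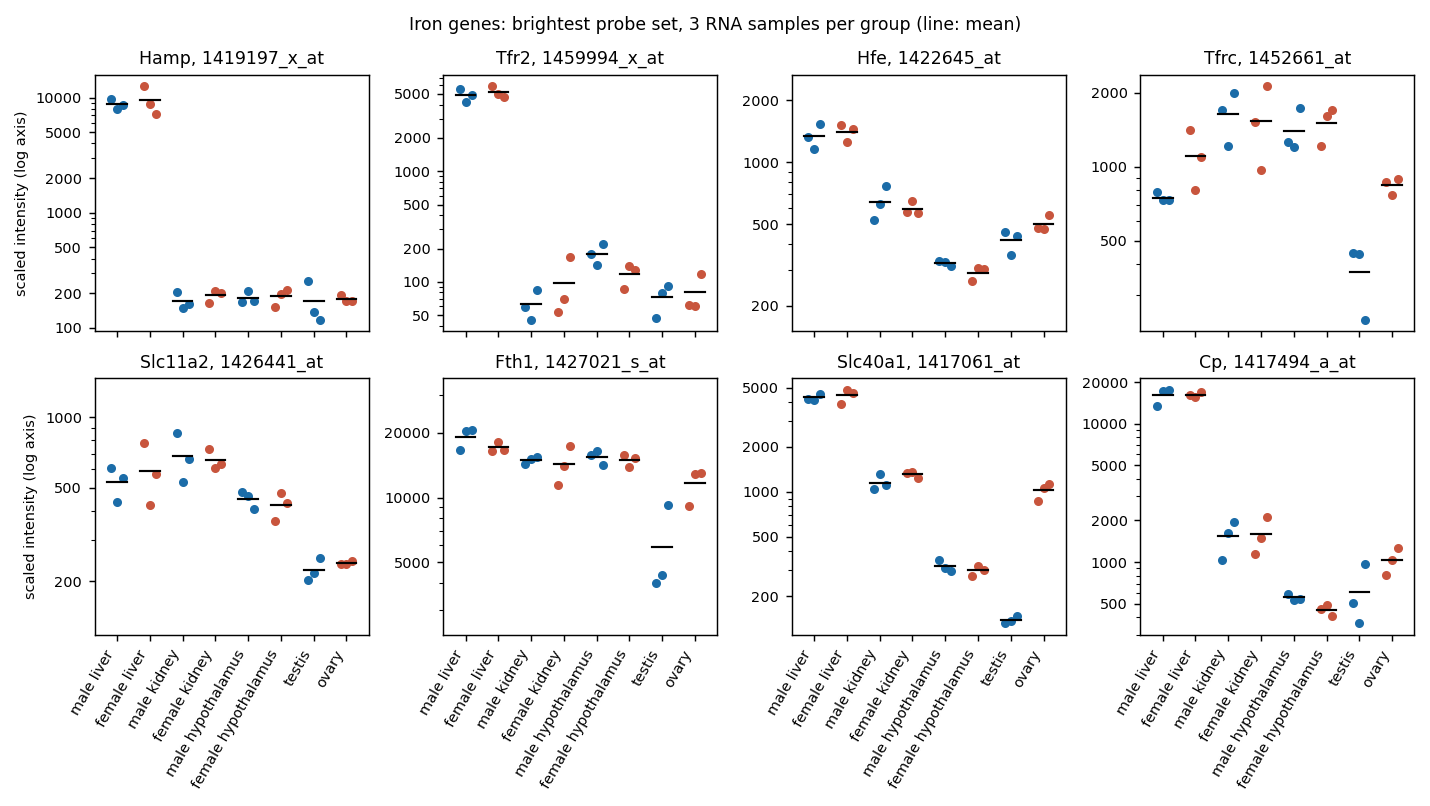
Scaled intensity (log axis) of the brightest probe set of each gene in the 3 RNA samples of each of the 8 groups, with blue for male and testis samples, red for female and ovary samples, and black lines at group means. Hamp, Tfr2, Slc40a1 and Cp stand highest in liver, while Tfrc 1452661_at is lowest in testis, at 238 to 443.

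Hamp was a liver transcript in these data. Its brightest probe set, 1419197_x_at, read 9630.4, 7977 and 8558 in male liver and 12556, 8836 and 7265 in female liver. Over the 18 samples of the other tissues it read 118 to 256, and 15 of them exceeded the 40th percentile. The second probe set, 1419196_at, read 7623 to 10972 in liver and 81.7 to 137 elsewhere, and only 1 of those 18 samples exceeded the 40th percentile. No liver sample came near any sample of another tissue. On the log2 scale, 1419197_x_at was higher in liver by 5.32 than in kidney, 5.29 than in hypothalamus, 5.43 than in testis and 5.34 than in ovary (SE 0.14 to 0.17, largest adjusted p = 2.0e-17). Because 48.1 is added to each intensity before the log, these values understate the ratio of intensities. Outside the liver no pair of tissues differed past the threshold, with differences of 0.02 to 0.13 in size for this probe set. Its highest value there was 256 in testis sample 1. Hepatocyte markers summed to 1400 in that sample against 780 and 467 in testis samples 2 and 3. They summed to more in kidney (3833 to 8697) and hypothalamus (8975 to 15692), where this probe set read 149 to 210 and 153 to 214. These sums rest on few genes and do not measure hepatocyte content. Of the 7 genes, 3 in male kidney, 4 in female kidney and 2 in testis exceeded the 40th percentile in every sample. In hypothalamus of each sex 2 did. The part of these markers in the Hamp values was not tested. The tandem copy Hamp2 was read by 1436643_x_at, with 1950 to 10396 in liver and 6.8 to 29.3 elsewhere. All Hamp2 values given here rest on this probe set. Its other probe set, 1456289_at, is not described. As said above, a probe set of one copy may read the other.

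Tfr2, the second transferrin receptor and a partner in hepatic iron sensing, followed Hamp to the liver. Probe set 1459994_x_at read 5512, 4211 and 4867 in male liver and 5882, 4971 and 4684 in female liver. Elsewhere it read 45.6 to 221, and 3 of 18 samples exceeded the 40th percentile. Liver exceeded kidney by 5.36 (SE 0.17), hypothalamus by 4.73 (SE 0.17), testis by 5.43 (SE 0.21) and ovary by 5.34 (SE 0.21) on the log2 scale, with no overlap of samples. The second probe set, 1425381_a_at, gave smaller differences of 3.48 to 3.71, with all 18 samples outside the liver between 180.1 and 386. Outside the liver 1459994_x_at lay mostly below the 40th percentile, so its differences there compare dim values. Kidney minus hypothalamus (-0.63, adjusted p = 0.0024), hypothalamus minus testis (0.70) and hypothalamus minus ovary (0.61) passed the threshold with overlapping samples. In 1425381_a_at, which exceeded the 40th percentile in all 18 samples, these were -0.24 (adjusted p = 0.24), 0.20 (adjusted p = 0.41) and 0.19 (adjusted p = 0.48). Quantile normalization ended the 3 calls of 1459994_x_at (-0.30, 0.33 and 0.47). The call against testis was also lost without testis sample 1 (0.52), and that against ovary without ovary sample 1 (0.50) or 2 (0.51).

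Hfe, the haemochromatosis gene, whose protein signals with Tfr2 toward hepcidin, was graded across tissues. Its tested probe set, 1422645_at, read 1329, 1160.0 and 1530 in male liver and 1511, 1255 and 1451 in female liver. Kidney samples read 522 to 770 with a median of 597, ovary 478, 472 and 553, testis 460.0, 354 and 437, and hypothalamus 263 to 329. Liver lay above every sample of every other tissue, by 1.10 (SE 0.10) over kidney and 2.00 (SE 0.10) over hypothalamus. The order was liver, kidney, ovary, testis and hypothalamus. Kidney and ovary were not separated (0.27, SE 0.12, adjusted p = 0.066), nor were testis and ovary (testis minus ovary -0.24, 95% interval -0.60 to 0.12, adjusted p = 0.21), although the testis samples lay below the ovary samples. Hypothalamus minus testis was -0.39 (adjusted p = 0.0061), a call that was lost when only the first array of each sample was used (-0.26). The second probe set, 1450702_at, stayed at 41.3 to 115 in all samples and was not tested.

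Tfrc, the receptor that brings transferrin iron into cells, had its lowest levels in testis. Probe set 1452661_at had medians of 1609 in kidney (973 to 2127), 1439 in hypothalamus (1200.3 to 1731), 795 in liver (728 to 1407), 868 in ovary (763 to 895) and 440 in testis (238 to 443). Liver minus kidney was -0.73 (SE 0.18, adjusted p = 0.0017) and liver minus hypothalamus -0.65 (SE 0.18, adjusted p = 0.0029), with overlapping samples both times. Median centring gave -0.26 (adjusted p = 0.19) for the second. Kidney and hypothalamus were not separated by this probe set (0.09, SE 0.18), nor were liver and ovary (0.09, SE 0.22). Testis was below liver by 1.21, hypothalamus by 1.85 and kidney by 1.94, with no overlap.

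In the other Tfrc probe sets hypothalamus was the highest tissue. For 1422966_a_at, hypothalamus read 848 to 1035, kidney 175 to 1013, liver 213 to 606, ovary 216 to 236 and testis 159 to 289. Kidney minus hypothalamus was -0.80 (adjusted p = 0.0062) here, where 1 kidney sample lay among the hypothalamus samples, and -0.93 (adjusted p = 3.3e-05) for 1422967_a_at, with no overlap. The 3 control probe sets, which read the 5′ end, the middle and the 3′ end of the Tfrc transcript, gave group means for hypothalamus of 145 to 148, 80.4 for both sexes, and 326 to 330. Each of them was highest in hypothalamus in every sample: outside it the highest sample of the 5′ control read 86.3, of the middle one 46.6 and of the 3′ one 232. The 5′ and middle controls were below the 40th percentile in all 24 samples. For the liver–testis difference, 1422966_a_at gave 0.56 (adjusted p = 0.11) and 1422967_a_at 0.13 (adjusted p = 0.58), neither past the threshold.

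Slc11a2, which encodes the divalent metal transporter DMT1, had 3 probe sets that did not agree on the order of tissues. The brightest, 1426441_at, read 529 to 854 in kidney, 424 to 775 in liver, 363 to 479 in hypothalamus, 237 to 244 in ovary and 203 to 251 in testis. With it, kidney exceeded hypothalamus by 0.56 (SE 0.13, adjusted p = 0.00042) and both gonads by over 1 log2 unit (1.40 for testis and 1.33 for ovary). Kidney and liver were not separated (liver minus kidney -0.25, SE 0.13, adjusted p = 0.10). Liver exceeded hypothalamus by 0.31 (adjusted p = 0.031), while 1417584_at passed the threshold the other way (-0.29, adjusted p = 0.030) and 1452078_a_at gave -0.19 (adjusted p = 0.17). The call of 1426441_at was lost without male liver 1 (0.26), male liver 3 (0.30), female liver 1 (0.21), male hypothalamus 3 (0.28) or female hypothalamus 1 (0.26). It was also lost with the sample number as a random block within a tissue (adjusted p = 0.063), and with only one of the 2 arrays of each sample (0.32 and 0.31).

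In contrast, 1417584_at put ovary at the top, with 255, 397 and 399 there, 252 to 340 in kidney, 168 to 226 in hypothalamus, 127 to 243 in liver and 101 to 127 in testis. Liver minus ovary was -0.92 (SE 0.15, adjusted p = 9.6e-06) in it and 1.08 (SE 0.16, adjusted p = 2.9e-06) in 1426441_at. The third probe set, 1452078_a_at, had a narrow range of 239 to 596 over all 24 samples. Only kidney stood out in it, above each other tissue by 0.43 to 0.61. What all 3 probe sets shared was kidney above hypothalamus and kidney above testis, past the threshold each time.

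**Figure D2:**
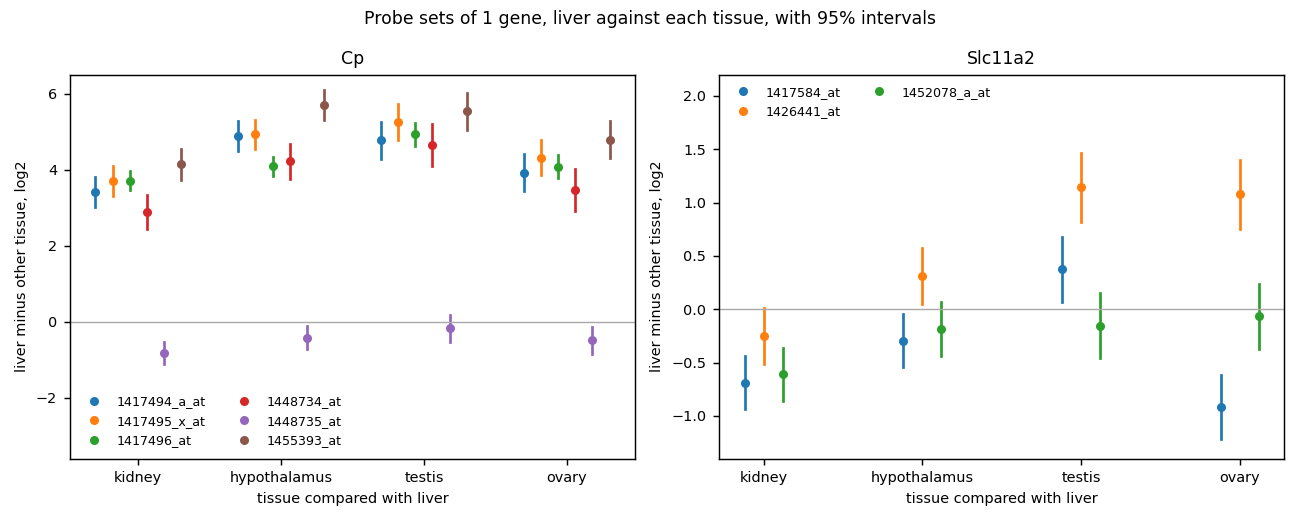
Log2 difference of liver minus kidney, hypothalamus, testis and ovary for the 6 tested probe sets of Cp and the 3 of Slc11a2, with 95% intervals as vertical lines. For Cp, 5 probe sets lie between 2.88 and 5.69 and 1448735_at lies below 0; for Slc11a2 in ovary, 1426441_at is at 1.08 and 1417584_at at -0.92.

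Fth1, the ferritin heavy chain that oxidises and stores iron, was at 11406 or above in every sample of liver, kidney and hypothalamus by its brightest probe set, 1427021_s_at. Liver read 16514 to 20573, hypothalamus 13801 to 16474, kidney 11406 to 17414, ovary 9086, 12882 and 12984, and testis 4005, 4359 and 9237. Liver, hypothalamus and kidney were not separated, with liver minus hypothalamus at 0.24, liver minus kidney at 0.31 and kidney minus hypothalamus at -0.07 (SE 0.16 each). Testis was lower than liver by 1.71, than kidney by 1.40 and than hypothalamus by 1.47 (SE 0.19 each, largest adjusted p = 8.3e-07). Ovary was below liver by 0.65 (adjusted p = 0.0054). That call was lost with quantile normalization (0.04) and without ovary sample 1 (0.48). Kidney and hypothalamus did not separate from ovary in this probe set (0.33, adjusted p = 0.15, and 0.40, adjusted p = 0.073). They did in the second, 1448771_a_at (0.58, adjusted p = 0.020, and 0.60, adjusted p = 0.015), where testis read 2013, 2015 and 5556. The ending of 1427021_s_at marks a probe set whose probes match more than one gene, so part of its signal may come from near copies of Fth1.

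Slc40a1, whose product ferroportin is the known exporter of iron from cells, was highest in liver and fell stepwise across tissues. In 1417061_at, male liver read 4221, 4109 and 4544 and female liver 3905, 4823 and 4568. Kidney read 1041 to 1352, ovary 873, 1064 and 1135, hypothalamus 274 to 347 and testis 132, 137 and 147. Liver was above kidney by 1.79 (SE 0.09), ovary by 2.05 (SE 0.11), hypothalamus by 3.63 (SE 0.09) and testis by 4.56 (SE 0.11), and the sample ranges of liver, of kidney with ovary, of hypothalamus and of testis did not touch. The second probe set, 1448566_at, kept this order with differences of 1.72 to 3.93 against liver. Only kidney and ovary were close. Their difference of 0.26 (adjusted p = 0.045) was lost in 15 of the settings tried and kept in 21. It was 0.12 (adjusted p = 0.46) in the second probe set, and it was lost without either of ovary samples 1 (0.15) and 2 (0.30). It was also lost without male kidney 2, female kidney 1 or 2, female liver 3, male hypothalamus 2 or 3, or female hypothalamus 3 (0.22 to 0.26), and with the sample number as a random block (adjusted p = 0.079).

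Cp, the plasma ferroxidase secreted by the liver, was read by 7 probe sets. The brightest, 1417494_a_at, read 13520 to 17546 in liver, 1038 to 2116 in kidney, 810 to 1274 in ovary, 362 to 966 in testis and 406 to 589 in hypothalamus. Liver exceeded kidney by 3.41 (SE 0.19), ovary by 3.92 (SE 0.24), testis by 4.77 (SE 0.24) and hypothalamus by 4.88 (SE 0.19), with no overlap. Of the 6 tested probe sets, 5 (1417494_a_at, 1417495_x_at, 1417496_at, 1448734_at and 1455393_at) were higher in liver than in each other tissue, by 2.88 to 5.69. The sixth, 1448735_at, was dim and ran the other way, at 85.8 to 125 in liver against 149 to 309 in kidney (-0.82, SE 0.14, adjusted p = 3.4e-05). Below the liver, kidney exceeded hypothalamus by 1.47 in 1417494_a_at and did not separate from ovary (0.51, SE 0.24, adjusted p = 0.071). Testis and hypothalamus were not separated (hypothalamus minus testis -0.11, SE 0.24). In male kidney, sample 1 was lowest, at 335 in 1455393_at beside 932 and 898, while the female kidney samples read 714, 755 and 919.

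Testis and ovary were compared directly in their own fit of 6 samples. Of 8 genes 4 were lower in testis and none higher, where 70.4% of all probe sets were called, 24.8% higher and 45.6% lower. The differences, as testis minus ovary, were -2.51 for Slc40a1 (SE 0.16, adjusted p = 9.9e-07), -1.12 for Tfrc (SE 0.22, adjusted p = 0.0015), -1.06 for Fth1 (SE 0.31, adjusted p = 0.011) and -0.85 for Cp (SE 0.33, adjusted p = 0.042). Of 18 member probe sets 11 were called and 9 had no overlap between the gonads. Over all probe sets 70.4% were called and 74.5% had no overlap. The median difference was -0.35 over all probe sets and -0.55 over the 8 genes. Median centring moved the first to 0.02 and the share of calls that were higher in testis from 35.3% to 50.9%. Slc40a1 (-2.14) and Tfrc (-0.75) were called under it, and Fth1 (-0.70, adjusted p = 0.082) and Cp (-0.48, adjusted p = 0.24) were not. Quantile normalization called Slc40a1, Tfrc and Fth1.

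Testis sample 3 carried much of the spread. It read 9237 in Fth1 1427021_s_at beside 4005 and 4359 in the other testis samples, and 966 in Cp 1417494_a_at beside 503 and 362. In Tfrc 1452661_at it was the low one, at 238 beside 443 and 440.4. The ovary samples read 9086, 12882 and 12984 in Fth1, 810, 1034 and 1274 in Cp, and 868, 763 and 895 in Tfrc. Of these brightest probe sets only that of Tfrc kept the groups apart. Fth1 1448771_a_at did so too, with 2013, 2015 and 5556 in testis and 6697 to 7761 in ovary. So did Cp 1417495_x_at, 1417496_at and 1448734_at, while Cp 1455393_at, Cp 1448735_at and Tfrc 1422966_a_at overlapped. Without testis sample 3 the differences were -1.44 for Fth1 (adjusted p = 5.6e-05), -1.23 for Cp (adjusted p = 0.00064) and -0.86 for Tfrc (adjusted p = 0.00034). Without testis sample 1 the count fell to 2, with Fth1 at -0.85 (adjusted p = 0.051) and Cp at -0.80 (adjusted p = 0.12). Cp was also lost without testis 2 (-0.51), ovary 2 (-0.85) or ovary 3 (-0.69), and with only the first arrays (-0.49). The part of testis sample 3's lower germ cell marker sum in these values was not tested.

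The 4 genes that were not called in the gonads were Hamp, Tfr2, Hfe and Slc11a2. Hamp differed by -0.09 (95% interval -0.60 to 0.43) and Tfr2 1425381_a_at by -0.01 (-0.43 to 0.40). Hfe is given above. Slc11a2 depended on the probe set: 1426441_at gave -0.07 (-0.40 to 0.27), while 1417584_at gave -1.29 (SE 0.19, adjusted p = 2.0e-04), with 127, 101 and 121 against 255, 397 and 399. Tfrc depended on it too, since 1422966_a_at differed by -0.16 (adjusted p = 0.51).

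Males and females were compared within liver, kidney and hypothalamus. None of the 8 iron genes was called in any of them by limma. The comparisons called 0.0505% of all probe sets in liver, 0.231% in kidney and 0.0507% in hypothalamus, that is 7, 32 and 7. At an unadjusted p under 0.05 the members held 2 of 19 probe sets in liver, 0 of 19 in kidney and 1 of 18 in hypothalamus. Values that did not overlap between the sexes were found in 2, 0 and 2 of these, where 6.18%, 9.49% and 6.29% of all probe sets did not overlap. The sample number was also fitted as a block. It was taken to pair the sexes in liver and kidney by the correlations given below, not by the labels. With it, 137 probe sets were called in kidney, and again none of the 8 genes in any of the 3 tissues.

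The 2 liver probe sets were both of Tfrc. For 1452661_at, male liver read 786, 728 and 731 and female liver 1407, 804 and 1097. Every male value was below every female one, and the female values were widely spread. The difference was -0.50 (SE 0.20, 95% interval -0.95 to -0.04, unadjusted p = 0.036, adjusted p = 1). Without female liver 1 it was -0.31, and without female liver 2 it was -0.70. For 1422966_a_at, male liver read 246, 213 and 265 against 606, 291 and 386, a difference of -0.68 (SE 0.23, unadjusted p = 0.020, adjusted p = 1). Erythroid markers, whose cells take up much transferrin iron, summed to 1471, 1024 and 1553 in male liver and 857, 1167 and 989 in female liver (5 of 8 genes measured). In each sex 2 of the 5 exceeded the 40th percentile in every sample, so the sums rest on few genes. Alas2, one of the 5, had means of 920 in male and 528 in female liver. Macrophage markers (8 of 8 measured) summed to 18592, 34279 and 34608 in male and 25734, 34231 and 45023 in female liver. Their part in the Tfrc values was not tested.

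In hypothalamus Cp 1417494_a_at read 589, 536 and 544 in males and 461, 491 and 406 in females. Every male value was above every female one, with a difference of 0.28 (SE 0.10, unadjusted p = 0.020, adjusted p = 1.00). The other 4 tested Cp probe sets there gave -0.10 to 0.06. Hfe read 329, 326 and 312 in males and 263, 305 and 302 in females, a difference of 0.14 (95% interval -0.07 to 0.35). For the other genes the brightest probe sets bounded the sex difference as follows. Hamp in liver was -0.10 (95% interval -0.58 to 0.38) and Tfr2 -0.09 (-0.45 to 0.26). Slc40a1 was -0.04 in liver (-0.35 to 0.26), -0.18 in kidney (-0.52 to 0.15) and 0.07 in hypothalamus (-0.15 to 0.29). Fth1 lay between 0.04 and 0.16 in the 3 tissues, with intervals no wider than -0.33 to 0.48. Tfrc in kidney had the widest interval, -0.57 to 0.78, around 0.10. Differences within these intervals are not excluded by 3 samples a group.

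**Figure D3:**
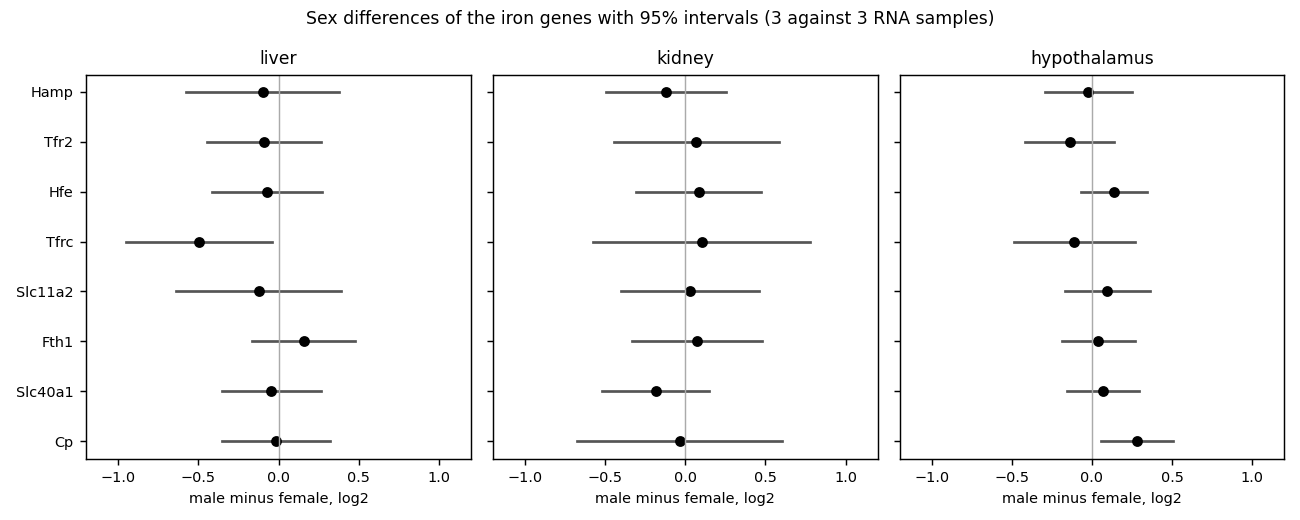
Log2 difference of male minus female for the brightest tested probe set of each gene in liver, kidney and hypothalamus, with 95% intervals as horizontal lines. Every interval spans 0 except those of Tfrc in liver (-0.95 to -0.04) and Cp in hypothalamus (0.05 to 0.50), and none passed the adjusted threshold.

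Whether the sex difference itself changed from tissue to tissue was tested as an interaction over 18 samples. No iron gene was called for liver against kidney, liver against hypothalamus or kidney against hypothalamus, where 0.237%, 0.0177% and 0.207% of all probe sets were. At an unadjusted p under 0.05 the members held 0, 0 and 1 of 21 probe sets. That one was Tfr2 1459994_x_at for kidney against hypothalamus (-0.76, SE 0.33, unadjusted p = 0.035, adjusted p = 1.00). It rests on dim values, 45.6 to 168 in kidney and 85.7 to 221 in hypothalamus. The Tfrc difference between liver and kidney was -0.60 for 1452661_at (95% interval -1.37 to 0.17).

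Within liver and kidney, some genes followed the sample number across both sexes. Tfr2 1425381_a_at read 5611 in male liver 1 and 6505 in female liver 1, and 2895 to 3827 in the other 4 liver samples. Hamp2 1436643_x_at read 6028 and 10396 in the number 1 samples and 1950 to 3239 in the others, so that its highest value was 5.33 times its lowest. Over all probe sets above the 40th percentile in every liver sample that ratio had a median of 1.46. Hamp varied less, by 1.44 times in 1419196_at and 1.73 times in 1419197_x_at, and its highest sample was number 1 in both sexes and both probe sets. In Tfr2 1459994_x_at the ratio was 1.40, again with number 1 highest in each sex. Macrophage markers were lowest in number 1 of each sex (18592 and 25734, against 34231 to 45023 in the others). Exocrine pancreas markers summed to 25291, 6624 and 31962 in male liver and 25244, 11434 and 11498 in female liver. Acute phase genes (11 of 11 measured) summed to 82065, 139994 and 135501 in male and 150044, 103813 and 125290 in female liver. The part of these cells in the Tfr2 and Hamp2 values was not tested.

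In kidney the number 2 samples were low in Tfrc. For 1422966_a_at they read 354 in males and 175 in females, against 683 to 1013 in the other 4, a ratio of 5.79 between highest and lowest. Its median over all probe sets was 1.52. For 1452661_at number 2 read 1211 and 973 against 1517 to 2127. The 3′ control read 139 and 119 in number 2 against 194 to 232 in the others. Tubule markers summed to 39689 in male kidney 2 and 42566 in female kidney 2, among sums of 39504 to 43961. Hepatocyte markers were lowest in number 2 of each sex. They summed to 4741 beside 8500 and 8697 in males, and to 3833 beside 6300 and 4707 in females. Exocrine pancreas markers were also lowest in number 2 of each sex (2374 and 3118). Both sums rest on few genes in kidney. Of the 7 hepatocyte genes, 3 in males and 4 in females exceeded the 40th percentile in every sample. Of the 5 pancreas genes, 1 in males and 2 in females did. The part of these markers in the Tfrc values was not tested. Slc40a1 1417061_at varied little, with a ratio of 1.3 beside the median of 1.52. It read 1041, 1313 and 1108.5 in male and 1344, 1352 and 1234.5 in female kidney.

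**Figure D4:**
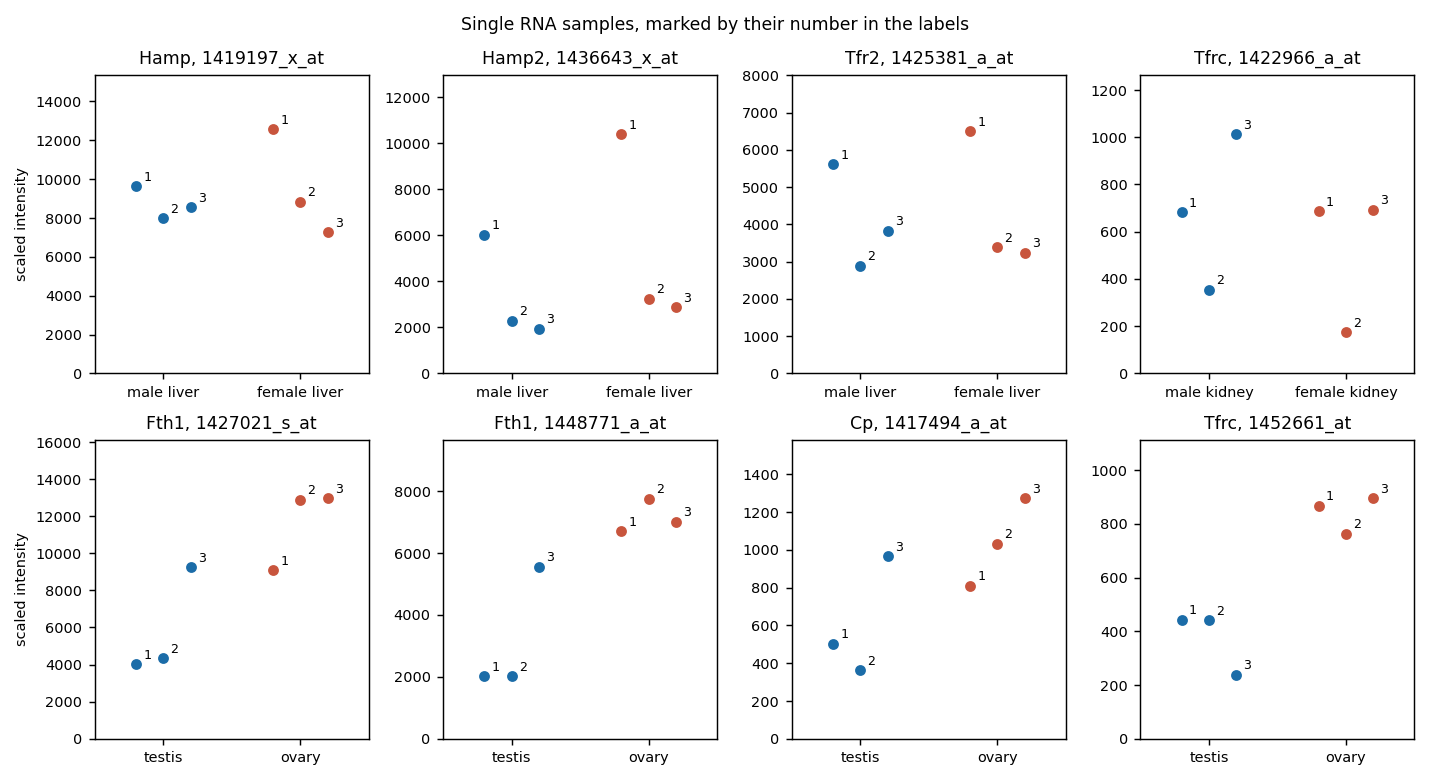
Scaled intensity of single RNA samples, marked with their number in the labels: Hamp, Hamp2 and Tfr2 in male and female liver, Tfrc in male and female kidney, and Fth1, Cp and Tfrc in testis and ovary (linear axes from 0). Liver number 1 is highest in the first 3 panels, kidney number 2 is lowest in Tfrc, and testis number 3 is apart from testis 1 and 2 in the 4 gonad panels, which show both probe sets of Fth1, Cp and Tfrc.

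Other genes of iron handling were taken from 5 lists by role. In males against females none of their measured genes was called in liver, kidney or hypothalamus, and by unadjusted p under 0.05 the lists held 2, 1 and 2 genes in all. The one with the lowest p, named after its values were seen, was Cd163, the macrophage receptor for haemoglobin with haptoglobin, at 145, 106 and 97.8 in male liver and 209, 234 and 260 in female liver (-0.79, SE 0.15, unadjusted p = 0.0009, adjusted p = 0.57). Male liver samples 2 and 3 lay below the 40th percentile of their arrays (119.7 and 113), so the difference rests partly on dim values.

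Between liver and kidney, the list of hepcidin control had 7 genes higher in liver and 6 lower of 19 tested, read against the 22.1% and 31.4% of all probe sets given above. Bmp6, a ligand that drives hepcidin, was lower in liver (82.2 against 1131), as was Neo1, neogenin (62.4 against 502). Bmp2, another such ligand, was higher (123 against 16.1), and so was Hamp2 (4462 against 19.1). The 40th percentile of the liver samples was 113 to 130. The liver means of Bmp6 and Neo1 lay below it and that of Bmp2 lay at it, so these are dim values. Cellular iron control, which holds the iron regulatory proteins Aco1 and Ireb2 and the iron chaperones Pcbp1 and Pcbp2, had 1 of 8 called, Hif1a, lower in liver. Other transporters had 7 higher and 8 lower of 18. The uptake receptors Lrp2 and Cubn of the proximal tubule were lower in liver (-6.03 and -6.27), and Steap4, a metalloreductase, and Slc39a14, a transporter of iron that is not bound to transferrin, were higher (4.53 and 2.10). Haem handling had 10 higher and 3 lower of 18, led by the plasma scavengers Hp (6.85) and Hpx (6.17). Iron-sulfur assembly had 7 of 12 lower and none higher, among them Isca1 (-0.71) and the cysteine desulfurase Nfs1 (-0.62). The median of each list was -0.08, -0.01, -0.01, 0.60 and -0.35 in that order, beside -0.06 over all probe sets.

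In testis against ovary, hepcidin control had 14 of 17 lower and 2 higher, where 45.6% and 24.8% of all probe sets were. Bmpr1a, a BMP receptor, fell by 1.87, its target Id1 by 1.90 and Bmp6 by 2.00, while the transcription factor gene Atoh8 was higher by 4.43. Cellular iron control had 4 of 8 lower, among them both iron regulatory protein genes, Aco1 (-2.15) and Ireb2 (-1.60), and 2 higher. One of these was Ftmt, mitochondrial ferritin, at 1549 against 48.6. Other transporters had 7 lower and 5 higher of 17, with Ltf, lactoferrin (-4.16), and Heph, the membrane relative of ceruloplasmin (-3.62), leading. Haem handling had 10 lower and 3 higher of 16, with the haem oxygenase Hmox2 higher by 3.53. Iron-sulfur assembly had 6 higher and 1 lower of 12. With median centring the lists had, in this order, 12 lower and 3 higher, 4 and 3, 6 and 7, 8 and 4, and 1 and 9. Other transporters thus no longer had more genes lower than higher. With quantile normalization they had 13 lower and 3 higher, 5 and 1, 7 and 5, 10 and 4, and 1 and 5. In the scaling used throughout, the list medians were -1.73, -1.04, -0.11, -0.996 and 0.47, beside -0.35 over all.

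Genes with the most similar pattern were found by Pearson's r over the 8 group means of log2 values, as a description over few points in which most variation lies between tissues. For Hamp they were Cyp2c70 and Apon (both 0.9997), for Tfr2 Dnase1l3 (0.9976) and Tat (0.9972), and for Slc40a1 Slc35d1 (0.999) and Cdo1 (0.996). Cp was most like Ncf4 (0.996) and Rgn (0.995), and Hfe was most like Lst1 (0.9969) and Cd302 (0.9965). Tfrc, by 1452661_at, was nearest to Pllp (0.9729) and Ndufaf4 (0.9726). Fth1 came nearest to Itm2b (0.990) and Mtss1 (0.989), and Slc11a2, by 1426441_at, to Hspa9 (0.984) and Sema4a (0.980).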

How the data were processed

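The deposited values are intensities, 1 per probe set and array, on a linear scale. The summary method is not given in the sources used here, nor is its software. Per the values, all 48 deposited arrays had nearly the same 2% trimmed mean (500.1 to 500.2), and each was divided by its own to make it exactly the same. Values were log2(intensity + 48.1), the pseudocount being the 20th percentile, averaged over the 2 arrays of an RNA sample. A probe set was tested where it exceeded the 40th percentile of its arrays in 3 or more of the RNA samples compared. limma 3.58.1 in R 4.3.3 (lmFit, eBayes, Benjamini-Hochberg, threshold 0.05) fitted 4 comparisons in 6 samples each, 3 interactions in 18, and 9 tissue pairs in all 24. The scripts were tested on simulated data. Errors are SEs of the fit, and 3 RNA samples a group limit the precision.

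Samples were grouped by title. Every member probe set is named, and the 2 most similar genes and up to 4 genes per list and comparison by lowest p; the list genes named in the text are chosen from these. The members and all lists were chosen with earlier results of these data known. Sample numbers were taken to pair samples where all 3 same-number correlations of deviations from the group means exceeded 0.1. They did in liver (0.54, 0.14 and 0.48; highest between different numbers 0.29) and kidney (0.59, 0.42 and 0.63; -0.12). Hypothalamus (0.39, 0.099 and 0.33; 0.089) did not in 1 value, and the gonads (0.04, 0.15 and 0.04; 0.03) did not in 2. In liver the number 2 value (0.14) lay below the highest between different numbers (0.29). In hypothalamus and the gonads every same-number value lay above it. Which tissues count as paired thus depends on the limit of 0.1, and the block was fitted to the same data. Alternatives covered scaling, pseudocount, filter, arrays, block, fit and single samples. Promoters were aligned with Biopython 1.88 and figures drawn with matplotlib 3.10.9 in Python 3.11.15.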

Additional observations from a re-analysis of the deposited data

How the results depend on the processing

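In every setting tried, none of the 8 genes was called between the sexes in liver, kidney or hypothalamus, or in the 3 interactions. Over all probe sets the calls ranged from 4 to 24 in liver (7 as reported), 15 to 137 in kidney (32) and 5 to 9 in hypothalamus (7), and from 26 to 74 (40), 0 to 6 (3) and 21 to 80 (35) in the interactions. The count of 4 genes in testis against ovary became 2 with median centring and lay between 2 and 4 with single samples left out. The count of 3 in kidney against ovary became 6 with median centring, 5 with quantile normalization and 1 with the dimmest probe set of each gene, and lay between 2 and 5 with single samples left out. The other counts between tissues stayed within 1.5 times.

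Of the 58 differences of single genes that were called, 14 lost the call in at least one setting, in 54 of 2012 comparisons of a setting with the reported value. In 8 the sign turned, each time with the dimmest probe set, an alternative chosen after seeing the data. These were Cp in liver against kidney (-0.82), hypothalamus (-0.42), testis (-0.17) and ovary (-0.49), and Slc11a2 in liver against hypothalamus (-0.29), liver against ovary (-0.92), kidney against ovary (-0.23) and hypothalamus against ovary (-0.62). All but Cp in liver against testis and Slc11a2 in kidney against ovary passed the threshold in the turned direction. The cause was not tested. The sample number as a fixed block gave 0 genes in each sex comparison and 4 in testis against ovary, and the Tfrc liver difference stayed at -0.50 (adjusted p = 0.94). As a random block within tissue it ended the calls of Slc11a2 and Slc40a1 given above, and no other. In the gonads and hypothalamus not every same-number correlation exceeded 0.1, so the block rests on the number alone there. Dim probe sets, such as Hamp 1419196_at and Tfr2 1459994_x_at outside the liver, limit what could be seen.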
